A study of Mus musculus with 62 samples.

Results

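Mitochondrial ribosomal proteins are encoded by nuclear genes, and 78 of the 27179 genes in each count table carried a mouse symbol of Mrpl or Mrps followed by a digit and were protein-coding. Of these, 51 were counted with the large subunit (every Mrpl gene with Mrps18a and Mrps30) and 27, the other Mrps genes, with the small subunit. Apart from Mrps18a and Mrps30 this followed the symbol alone, also for Mrps36, and was not checked against the particle. In the Ts65Dn mouse, Mrps6 and Mrpl39 lie on the triplicated part of chromosome 16 and are present in 3 copies, while the other 76 members are in 2 copies. RNA was sequenced from embryonic forebrain (E17.5, 8 euploid and 7 Ts65Dn libraries, sex not labelled) and from hippocampus of 6-week-old mice (males: 8 euploid, 7 Ts65Dn and 8 Ts65Dn;Brwd1+/- libraries; females: 8 of each). All groups shared a mixed background of DBA/2J and B6EiC3Sn/J. Ts65Dn;Brwd1+/- mice carry the same segmental trisomy with 1 mutant allele of Brwd1, from a cross of Ts65Dn females with males heterozygous for the Brwd1 repro5 mutation, so that they differ from Ts65Dn in Brwd1 and not in the copies of Mrps6 or Mrpl39. No group with the Brwd1 mutation alone was analysed here.

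The mitochondrial ribosome translates the few proteins encoded by mitochondrial DNA, which are core subunits of the respiratory chain complexes and the ATP synthase. Its small subunit binds the mRNA and decodes it, and its large subunit holds the peptidyl transferase center and the exit tunnel. Each protein is made in the cytosol, imported and assembled with mitochondrial rRNA, so that the parts of 1 particle come from genes scattered over many chromosomes. Mrps6 (bS6m) is a peripheral protein of the small subunit, and Mrpl39 (mL39) is a large-subunit protein with no bacterial counterpart.

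Library totals ran from 14863136 to 137059172 counted reads. A level below is the log2 CPM (counts-per-million) after scaling of the library totals, and a difference is called at an adjusted p under 0.1 in edgeR's quasi-likelihood test over all tested genes. Brwd1 itself had a median of 7.23 log2 CPM in male Ts65Dn and 7.11 in male Ts65Dn;Brwd1+/- libraries (log2 fold change -0.25 ± 0.09 SE, adjusted p = 0.63), and 7.35 and 7.21 in the females (-0.25 ± 0.11 SE, adjusted p = 0.9999). Several adult libraries stood apart. In 4 libraries labelled trisomic (male Ts65Dn B145, male Ts65Dn;Brwd1+/- T35 and B138, female Ts65Dn;Brwd1+/- B136), the triplicated genes other than Mrps6 and Mrpl39 had a median log2 ratio to euploid of -0.0014 to 0.06, against 0.46 to 0.62 in the other trisomic libraries. Brwd1 was at 6.92, 6.78, 6.49 and 6.59 log2 CPM in B145, T35, B138 and B136, the lowest of its group in B145, B138 and B136. The Brwd1 differences above include these libraries, and values without them are not given here. In 2 libraries (male Ts65Dn B88 and female euploid B85), Xist and Ddx3y went against the labelled sex. In 2 female libraries (euploid B125 and Ts65Dn;Brwd1+/- B176), transcripts under 1200 bases stood above those over 5000 bases by 0.96 and 0.94 on the log2 scale, against -0.18 to 0.28 in the other libraries. All libraries were kept with their labels, and their influence is given beside the main results. The neuron, astrocyte, oligodendrocyte, microglia and endothelial markers were all above 0.1 CPM in every library. The summed level of 4 hippocampal markers was 174.6 to 459.3 CPM in adult libraries and 32.1 to 79.7 CPM in the embryos. Its median was 327.4, 300.2 and 240.5 CPM in euploid, Ts65Dn and Ts65Dn;Brwd1+/- males and 336.5, 253.1 and 266.3 CPM in the females, and its part in the comparisons below was not tested.

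On GRCm38, Mrps6 lies on the plus strand of chromosome 16 (92058336 to 92112227) and Mrpl39 on its minus strand (84718281 to 84735244), where the triplicated segment was taken to begin. Their promoters, from 250 bases before to 50 bases after the RefSeq start, lie inside the segment as bounded here and are shown because these are the only members whose dosage differs by genotype. Capitals mark the NRF1 core GCATGCGC, the binding motif of a factor known to drive many nuclear genes for mitochondrial proteins, on either strand.
Mrps6, chr16:92058086-92058385, plus strand: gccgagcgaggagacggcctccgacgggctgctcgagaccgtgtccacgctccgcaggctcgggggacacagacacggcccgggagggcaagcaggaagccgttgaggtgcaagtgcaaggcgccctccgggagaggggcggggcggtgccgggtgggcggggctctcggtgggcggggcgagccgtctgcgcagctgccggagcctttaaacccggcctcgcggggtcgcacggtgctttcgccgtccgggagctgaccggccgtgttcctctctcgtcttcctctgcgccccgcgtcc
Mrpl39, chr16:84735195-84735494, minus strand: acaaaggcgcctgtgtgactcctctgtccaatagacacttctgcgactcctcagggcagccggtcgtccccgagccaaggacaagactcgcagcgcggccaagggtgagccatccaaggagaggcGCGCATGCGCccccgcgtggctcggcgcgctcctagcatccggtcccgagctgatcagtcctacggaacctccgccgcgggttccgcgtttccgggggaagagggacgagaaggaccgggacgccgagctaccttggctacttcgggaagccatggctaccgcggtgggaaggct
The Mrpl39 window held the motif once on each strand, overlapping in 10 bases that lie 116 to 125 bases before the start, and the Mrps6 window held none. The NRF1 core was found on either strand in the promoters of 8 of 69 members with a sequence (11.6%) and of 4.09% of 16784 protein-coding genes. The others with it were Mrpl9, Mrpl10, Mrpl17, Mrpl22, Mrpl32, Mrpl33 and Mrps18b. The ETS core CCGGAAGT was in 12 members (17.4%, against 5.88% of the genes), and the YY1 core AAGATGGC was also in 12 (17.4%, against 3.63%). Neither the Mrps6 nor the Mrpl39 window held the ETS or YY1 core. The start of Slc5a3, a myo-inositol transporter gene that is also triplicated, lay 14 bases from that of Mrps6 on the same strand, and their windows shared 286 bases. Slc5a3 and Mrps6 share 159 exonic bases, which is 18.8% of the 846 exonic bases of Mrps6, and reads from the shared first exon cannot be told apart.

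Levels of different genes were compared as RPKM, the CPM per kilobase of exon, in the euploid libraries. The 77 members that passed the filter on low counts ranged from 3.92 to 101 RPKM in the forebrain (median 20.01, n = 8 libraries) and from 2.52 to 40.9 RPKM in the adult hippocampus (median 14.9, n = 16). Mrpl36, which encodes a short large-subunit protein, did not pass, with 0 to 5 reads in the embryonic and 1 to 15 reads in the adult libraries. In the forebrain the highest members were Mrpl52 (101 RPKM ± 11.1 SD), Mrpl20 (61.0 ± 4.13), Mrpl34 (60.1 ± 7.08) and Mrps21 (60.0 ± 5.30), of which the last 3 differed by less than their spread. The lowest there were Mrpl1 (3.92 ± 0.65), Mrpl47 (4.22 ± 0.47), Mrps25 (4.29 ± 0.27) and Mrpl17 (4.87 ± 0.50). In the hippocampus Mrpl20 (40.9 ± 4.61), Mrps21 (37.5 ± 5.42), Mrpl41 (37.2 ± 4.75) and Mrps18a (36.4 ± 5.44) were highest, again within 1 SD of each other, and Mrpl47 (2.52 ± 0.24), Mrps35 (2.93 ± 0.27), Mrpl32 (3.49 ± 0.27) and Mrpl1 (3.49 ± 0.33) were lowest. Mrps25 shares 58.2% of its exonic bases with Nr2c2 and Mrpl47 shares 13.4% with Actl6a, both on the opposite strand, and the library kit does not mark strand. The forebrain's highest members had 418 to 764 annotated exonic bases and its lowest 3364 to 7300. In the hippocampus these were 492 to 884 and 3013 to 4170 bases. RPKM divides by this length, and whether all of it was transcribed here was not tested.

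The order of the members was similar in the tissues, with a Spearman rho of 0.90 over the 77 members, which share their transcript lengths in both. Of these, 66 had a higher RPKM in the embryos, and the median log2 ratio of adult to embryonic level was -0.49. The share of all genes higher in the embryos was not computed. Mrps6 stood at rank 12 in the forebrain (39.1 RPKM ± 2.24 SD) and at rank 33 in the hippocampus (17.3 ± 4.54). Mrpl39 stood at rank 52 (15.2 ± 1.37) and rank 48 (11.4 ± 1.17). Tissue and age changed together and the tables were made separately, so these cannot be told apart.

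**Figure D1:**
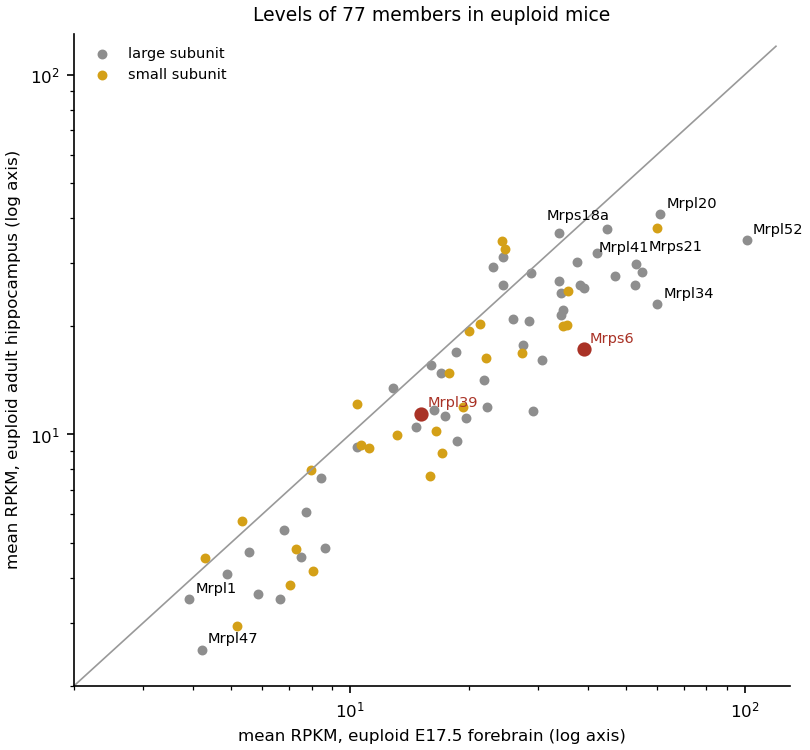
Mean level of each of 77 members in euploid E17.5 forebrain (horizontal, RPKM, log axis, n = 8 libraries) and euploid adult hippocampus (vertical, RPKM, log axis, n = 16), with large-subunit members in grey, small-subunit members in yellow, the triplicated Mrps6 and Mrpl39 in red and a line of equal levels. Most members lie below the line, with 66 of 77 higher in the embryos, and Mrps6 lies further below it than Mrpl39.

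In the E17.5 forebrain, both triplicated members rose in Ts65Dn vs euploid, and no 2-copy member was called. Mrps6 had 4.94, 5.02 and 5.20 log2 CPM (lowest, median and highest) in euploid and 5.61, 5.84 and 5.86 in Ts65Dn libraries. Every Ts65Dn library lay above every euploid library, with a log2 fold change of 0.75 ± 0.05 (SE, 1.69-fold, adjusted p = 7.9e-07, edgeR). Mrpl39 had 4.98, 5.08 and 5.31 log2 CPM in euploid and 5.58, 5.71 and 5.92 in Ts65Dn libraries, again without overlap (0.62 ± 0.07, 1.54-fold, adjusted p = 3.9e-05). The log2 of 3 copies over 2 is 0.585. Among the 116 triplicated protein-coding genes tested, whose median log2 fold change was 0.56, Mrps6 had rank 24 and Mrpl39 rank 44. Slc5a3 also rose (0.47 ± 0.12, adjusted p = 0.084), with 1 Ts65Dn library below the euploid median.

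In the adult male hippocampus, Mrpl39 rose in both trisomic genotypes vs euploid. Mrpl39 had 4.60, 4.73 and 4.97 log2 CPM in euploid, 4.73, 5.28 and 5.33 in Ts65Dn, and 4.65, 5.34 and 5.46 in Ts65Dn;Brwd1+/- libraries. The overlap with euploid came from B145, T35 and B138, the libraries without trisomic dosage, and the next lowest trisomic library had 5.21. The log2 fold change was 0.46 ± 0.11 (1.38-fold, adjusted p = 0.070) for Ts65Dn vs euploid and 0.48 ± 0.11 (1.39-fold, adjusted p = 0.058) for Ts65Dn;Brwd1+/- vs euploid. Leaving out single libraries ended the first call in 11 of 15 cases (adjusted p up to 0.16) and the second in 9 of 16 (up to 0.13), while the fold change stayed at 0.44 or more. Without B145, T35 and B138 the fold changes were 0.53 (adjusted p = 3.2e-07) and 0.62 (adjusted p = 2.8e-08).

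Mrps6 in the males had 3.46, 3.80 and 4.22 log2 CPM in euploid, 3.56, 4.29 and 4.83 in Ts65Dn, and 3.84, 4.47 and 4.73 in Ts65Dn;Brwd1+/- libraries. The groups overlapped, and the differences from euploid of 0.50 ± 0.16 (adjusted p = 0.26) and 0.55 ± 0.16 (adjusted p = 0.15) were not called. Without B145, T35 and B138 both were called, at 0.60 (adjusted p = 0.0069) and 0.70 (adjusted p = 0.0013). Leaving out B145 alone gave 0.60 (adjusted p = 0.053) for Ts65Dn, and leaving out T35 or B138 alone gave 0.62 for Ts65Dn;Brwd1+/- (adjusted p = 0.067 and 0.077). With B145, T35 and B138 all left out, the lowest Ts65Dn;Brwd1+/- library was at 4.32, above all euploid libraries. The lowest Ts65Dn library, at 4.11, then lay below the highest euploid one. DESeq2 called both differences with all libraries (adjusted p = 0.093 and 0.033).

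In the adult female hippocampus, Mrpl39 again showed the clearer separation. It had 4.47, 4.64 and 4.99 log2 CPM in euploid, 5.20, 5.32 and 5.43 in Ts65Dn, and 4.63, 5.31 and 5.57 in Ts65Dn;Brwd1+/- libraries. Ts65Dn and euploid libraries did not overlap (0.65 ± 0.09, 1.57-fold, adjusted p = 9.9e-05), and of the Ts65Dn;Brwd1+/- libraries only B136, which lacks trisomic dosage, fell within the euploid range (0.61 ± 0.09, 1.52-fold, adjusted p = 4.6e-04). The highest euploid value was that of B125 and the highest of all that of B176, the libraries with raised short transcripts.

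Mrps6 in the females had 3.35, 3.74 and 4.67 log2 CPM in euploid, 4.27, 4.55 and 5.02 in Ts65Dn, and 3.95, 4.47 and 5.37 in Ts65Dn;Brwd1+/- libraries. The groups overlapped through B125 (4.67), without which the highest euploid library was at 4.15, and through B136 (3.95). Mrps6 was called in Ts65Dn vs euploid (0.70 ± 0.18, 1.62-fold, adjusted p = 0.053), and the call was lost without euploid B85 (0.66, adjusted p = 0.11) or without euploid B65 (0.66, adjusted p = 0.11). It was not called in Ts65Dn;Brwd1+/- vs euploid (0.68 ± 0.18, adjusted p = 0.13), but was without B125 (0.83, adjusted p = 0.011) or without B136 (0.75, adjusted p = 0.053).

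Between Ts65Dn;Brwd1+/- and Ts65Dn, neither triplicated member was called. In males the log2 fold change was 0.05 ± 0.16 for Mrps6 and 0.02 ± 0.11 for Mrpl39, and in females -0.01 ± 0.18 and -0.05 ± 0.09 (adjusted p of 0.98 or more in all 4). In these fits edgeR called no gene of the table, and with 3 RUVr factors (estimated unwanted variation) it called 3.47% of genes in males and 2.48% in females, neither triplicated member among them. The effect of Ts65Dn vs euploid was larger in females than in males by 0.20 ± 0.25 (SE) for Mrps6 and 0.20 ± 0.14 for Mrpl39, differences that were not called (adjusted p = 0.83 and 0.66, edgeR interaction over 47 libraries). Without the libraries lacking trisomic dosage they were 0.10 ± 0.23 and 0.13 ± 0.08 (adjusted p = 0.94 and 0.66). None of the 77 members was called in this interaction (0% of 17427 genes), and 3 had an unadjusted p under 0.05, as did 11.1% of all genes.

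**Figure D2:**
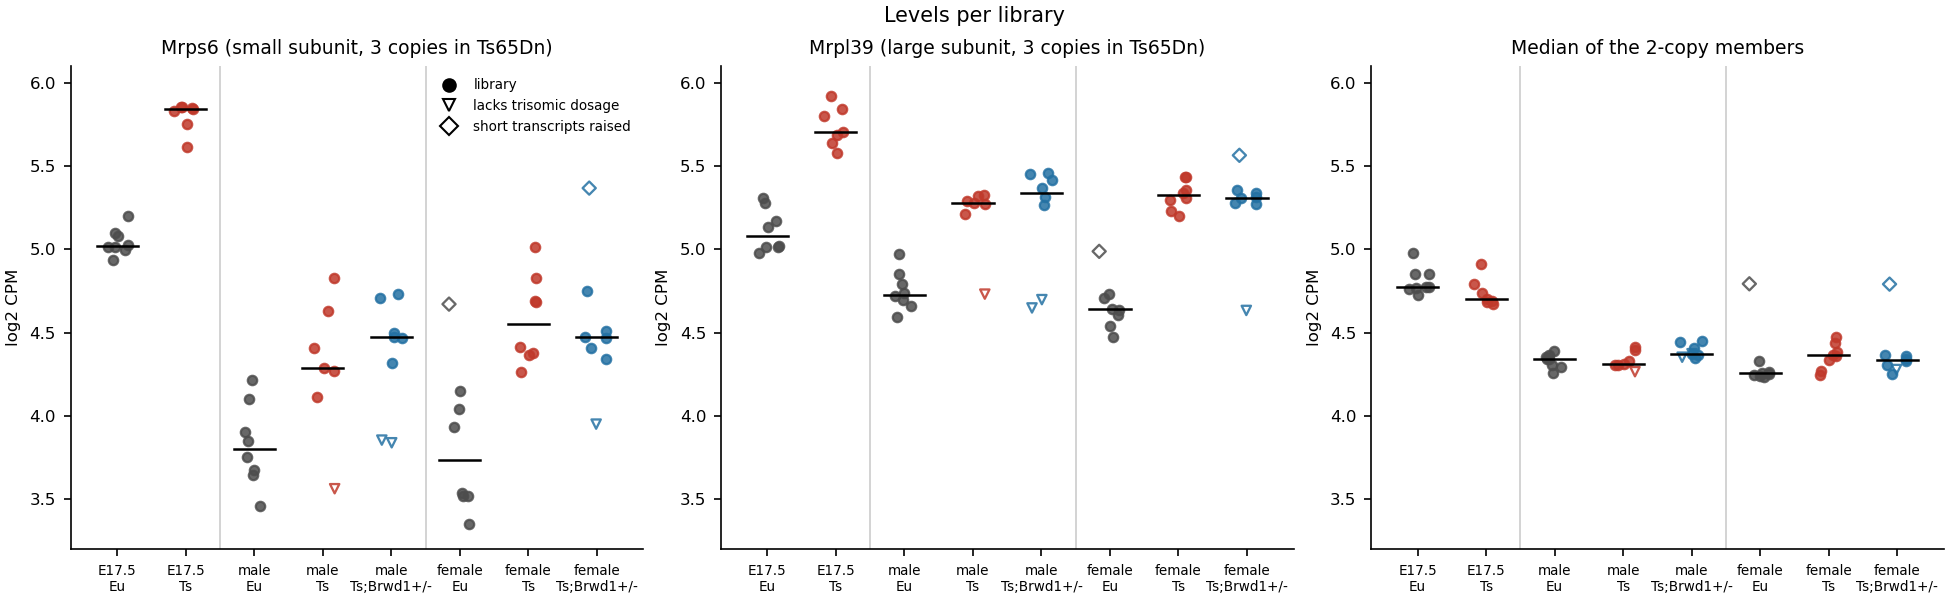
Level (log2 CPM) of Mrps6, of Mrpl39 and of the median 2-copy member in every library of the 8 groups, where Eu is euploid, Ts is Ts65Dn and bars are group medians. Open triangles are the 4 libraries lacking trisomic dosage, which lie within the euploid range of both genes, and open diamonds the 2 libraries with raised short transcripts, which lie highest in the panel of 2-copy members among adults.

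Each triplicated member was next set against the 2-copy members of its own subunit in the same library, a ratio that does not depend on library scaling. In euploid embryos, Mrps6 stood 0.53 ± 0.15 (SD, n = 8) above the median of 26 other small-subunit members on the log2 scale, and in Ts65Dn embryos 1.30 ± 0.12 (n = 7). Mrpl39 stood 0.13 ± 0.09 above the median of 49 large-subunit members in euploid and 0.81 ± 0.08 in Ts65Dn embryos. Neither pair of groups overlapped, and the differences of 0.78 and 0.68 each had the smallest p that 7 against 8 libraries allow (p = 3.1e-04, exact permutation test, 2-sided, adjusted p = 0.0011 over 14 tests).

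In adults, Mrps6 was on average below the median of its subunit in euploid mice and above it in trisomic ones. The difference of Ts65Dn from euploid was 0.45 in males (exact permutation test, adjusted p = 0.019) and 0.77 in females (adjusted p = 0.0011), and that of Ts65Dn;Brwd1+/- from euploid was 0.48 (adjusted p = 0.013) and 0.69 (adjusted p = 0.0025). For Mrpl39 the differences from euploid were 0.44 and 0.63 in male and female Ts65Dn (exact permutation test, adjusted p = 0.0025 and 0.0011) and 0.38 and 0.59 in Ts65Dn;Brwd1+/- (adjusted p = 0.019 and 0.0022). All 10 differences from euploid, in embryos and adults, thus passed an adjusted p of 0.1, also those of Mrps6 that the gene-wise fit did not call. The permutation p-values were adjusted over 14 tests and those of edgeR over all tested genes, so the calls are not comparable. For these Mrps6 differences the unadjusted edgeR p was the smaller one. It was 0.0044 against 0.013 by permutation in male Ts65Dn and 0.0017 against 0.0076 in male Ts65Dn;Brwd1+/-. In female Ts65Dn;Brwd1+/- it was 0.00105 against 0.00124. The 4 differences between Ts65Dn;Brwd1+/- and Ts65Dn lay between -0.08 and 0.03 (exact permutation test, adjusted p of 0.71 or more). Without the libraries of doubtful dosage or sex, the male differences from euploid were 0.48 and 0.65 for Mrps6 and 0.52 and 0.56 for Mrpl39 (Ts65Dn, then Ts65Dn;Brwd1+/-, exact permutation test, adjusted p of 0.0044 or less). Without them, Mrps6 in males was 0.17 higher relative to its subunit in Ts65Dn;Brwd1+/- than in Ts65Dn (exact permutation test, adjusted p = 0.094, also under 0.1). The libraries left out included Ts65Dn B88, which had trisomic dosage and the highest such value of its group (0.655). With only the libraries lacking dosage left out, the means were 0.35 in Ts65Dn;Brwd1+/- and 0.26 in Ts65Dn males. The gene-wise difference was called in 0 of 11 alternatives (adjusted p of 0.65 or more, edgeR or DESeq2).

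The 2-copy members moved little beside the triplicated pair. Of 75 tested, none was called in E17.5 Ts65Dn vs euploid with edgeR or DESeq2 (5 with 3 RUVr factors in edgeR, beside 22.1% of all genes), where 1.35% and 3.58% of all tested genes were called. At an unadjusted p under 0.05, 4 were lower and none higher, beside 12.1% of all genes at that p. Their median log2 fold change was -0.04, against -0.01 for all genes, with 16 higher and 59 lower, and the range ran from -0.29 (Mrpl48) to 0.20 (Mrpl27). Of all genes, 46.3% were higher. The medians were -0.05 for the large and -0.03 for the small subunit.

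The 2-copy members with the smallest p-values in the embryos were Mrpl23 and Mrpl9 among those lower and Mrpl38 and Mrpl16 among those higher. Mrpl23, a protein near the exit tunnel, had 4.10, 4.32 and 4.55 log2 CPM in euploid and 3.75, 4.12 and 4.35 in Ts65Dn libraries (-0.23 ± 0.09, adjusted p = 0.34). Mrpl9 had 5.83, 5.97 and 6.21 in euploid and 5.77, 5.82 and 6.01 in Ts65Dn libraries (-0.14 ± 0.06, adjusted p = 0.36). Both pairs of groups overlapped, and 1 Ts65Dn library lay above the euploid median for each. Mrpl38 (0.12 ± 0.06, adjusted p = 0.44) and Mrpl16 (0.10 ± 0.07, adjusted p = 0.53) had 6 of 7 Ts65Dn libraries above the euploid median.

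In males, no 2-copy member was called in Ts65Dn vs euploid with edgeR or DESeq2, beside 0.795% and 1.48% of all genes. With 3 RUVr factors in edgeR 1 was called, and 3 in Ts65Dn;Brwd1+/- vs euploid, beside 4.63% and 4.97% of all genes. Their median was 0.02 (all genes 0.00), and 3 were higher at an unadjusted p under 0.05, beside 8.91% of all genes. None was called in Ts65Dn;Brwd1+/- vs Ts65Dn, as 0% of genes were with edgeR and 0.00593% with DESeq2. Here 4 members were higher at an unadjusted p under 0.05 (7.48% of all genes), and the median was 0.03. Of 75, 1 was called in Ts65Dn;Brwd1+/- vs euploid with edgeR (0.576% of genes) and with DESeq2 (1.73%), and 6 were higher at an unadjusted p under 0.05 (10.1%). Their median was 0.05 (all genes -0.0033), with 60 of 75 higher, beside 48.7% of all genes.

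The called member was Mrpl41, a large-subunit protein also known to bind Bcl-2. It had 4.69, 4.79 and 4.96 log2 CPM in euploid and 4.87, 5.01 and 5.13 in Ts65Dn;Brwd1+/- males (0.18 ± 0.05, 1.14-fold, adjusted p = 0.082). The groups overlapped, with all 8 Ts65Dn;Brwd1+/- libraries above the euploid median. The call was lost in 11 of 16 omissions of a single library (adjusted p of 0.12 to 0.17) and at an FDR of 0.05. The alternative fits kept it (0.18 to 0.22, adjusted p up to 0.099, edgeR or DESeq2), also that without B145, T35 and B138. In male Ts65Dn, Mrpl41 had 4.82, 4.97 and 5.02 log2 CPM (0.13 ± 0.05 vs euploid, adjusted p = 0.37), the smallest p among the 2-copy members there too. These comparisons share the euploid libraries.

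The others named in males had small differences. In Ts65Dn vs euploid these were Mrps18a (0.11 ± 0.05, adjusted p = 0.49), Mrpl37 (-0.07 ± 0.04, adjusted p = 0.59) and Mrpl57 (-0.09 ± 0.05, adjusted p = 0.64). Between Ts65Dn;Brwd1+/- and Ts65Dn these were Mrpl30 (0.12 ± 0.05), Mrpl40 (0.14 ± 0.06), Mrpl10 (-0.03 ± 0.04) and Mrpl34 (-0.08 ± 0.08), with adjusted p-values of 0.63 to 0.88. Mrpl30 had 4.69, 4.83 and 4.92 log2 CPM in Ts65Dn and 4.83, 4.93 and 5.12 in Ts65Dn;Brwd1+/- libraries, which overlapped.

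In females, no 2-copy member was called in any comparison with edgeR or DESeq2 without RUVr factors. With 3 such factors edgeR called 7 in Ts65Dn vs euploid, 2 between the trisomic genotypes and 12 in Ts65Dn;Brwd1+/- vs euploid, beside 23.5%, 2.48% and 18.5% of all genes. In Ts65Dn vs euploid, 3.17% of all genes were called with edgeR and 6.12% with DESeq2. The members' median there was -0.0041 (all genes -0.02), and 1 was lower at an unadjusted p under 0.05, beside 15.4% of all genes. In Ts65Dn;Brwd1+/- vs Ts65Dn, with 0% and 0.0817% of genes called, the median was 0.07 and none of the members had an unadjusted p under 0.05, beside 3.52% of all genes. In Ts65Dn;Brwd1+/- vs euploid, with 0.729% and 1.77% of genes called, the median was 0.06 and 2 were higher at an unadjusted p under 0.05, beside 11.2% of all genes. At any p, 36, 60 and 57 of 75 members were higher in these comparisons, in the same order. Beside them were 45.7%, 51.5% and 48.0% of all genes.

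Mrpl53, the member lower in female Ts65Dn, had 4.25, 4.41 and 4.86 log2 CPM in euploid and 4.12, 4.26 and 4.38 in Ts65Dn libraries (-0.18 ± 0.08, adjusted p = 0.28). Without B125 and B176 its difference was -0.11 ± 0.05 (adjusted p = 0.17), and that of Mrpl4 was -0.077 ± 0.053 (adjusted p = 0.37). All 8 Ts65Dn libraries lay below the euploid median, and the groups overlapped. Mrpl4 (-0.14 ± 0.08), Mrpl35 (0.25 ± 0.13) and Mrps30 (0.12 ± 0.07) followed, with adjusted p-values of 0.36 to 0.41. The smallest p-values in Ts65Dn;Brwd1+/- vs Ts65Dn were those of Mrps18c (0.17 ± 0.09), Mrpl41 (0.16 ± 0.09), Mrpl1 (-0.09 ± 0.06) and Mrpl35 (-0.19 ± 0.13), all with an adjusted p of 0.9999. Mrpl27 in Ts65Dn;Brwd1+/- vs euploid had 3.31, 3.88 and 3.99 log2 CPM in euploid and 3.86, 4.05 and 4.53 in Ts65Dn;Brwd1+/- libraries (0.35 ± 0.15, adjusted p = 0.39). It shares 9.9% of its exonic bases with Eme1 on the opposite strand. These groups overlapped, with 7 of 8 libraries above the euploid median. Mrps2 (0.11 ± 0.05, adjusted p = 0.44), Mrpl47 (-0.12 ± 0.08, adjusted p = 0.62) and Mrps5 (-0.05 ± 0.05, adjusted p = 0.80) were the others named.

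**Figure D3:**
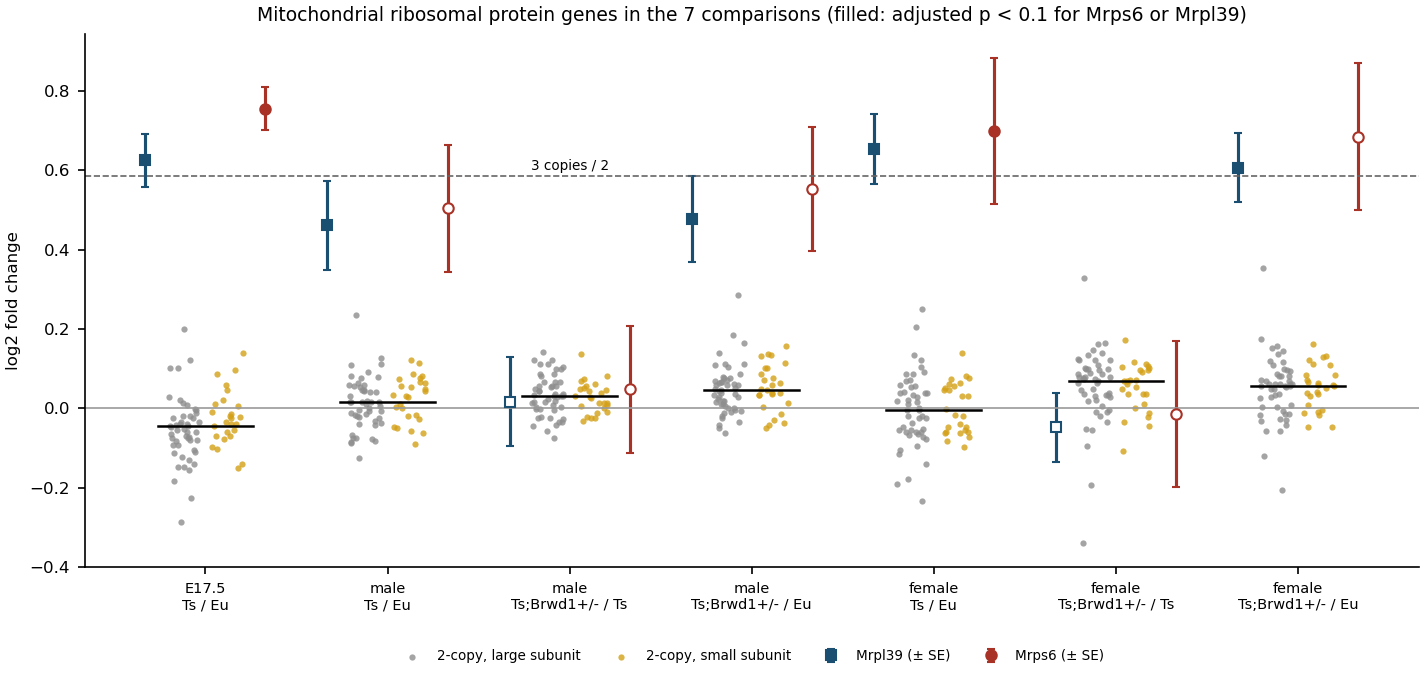
Log2 fold change of the 75 tested 2-copy members (points by subunit, bar at their median) and of Mrps6 and Mrpl39 (± SE, filled where the adjusted p was under 0.1) in the 7 comparisons, where Eu is euploid and Ts is Ts65Dn, with a dashed line at the log2 of 3 copies over 2. In the 5 comparisons of a trisomic genotype with euploid both triplicated members lie above every 2-copy member, and in the 2 comparisons between trisomic genotypes they lie among them.

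The female comparisons of 2-copy members turned on the 2 libraries with raised short transcripts. The median 2-copy member was at 4.79 log2 CPM in both B125 and B176, against 4.23 to 4.47 in the other female libraries. Without them, 10 of 75 members were called in female Ts65Dn vs euploid, all higher, where 17.4% of all genes were called. Their median log2 fold change rose to 0.08, beside -0.0047 for all genes. The 10 were Mrpl10, Mrpl16, Mrpl38, Mrpl42, Mrpl43, Mrpl45, Mrps2, Mrps18a, Mrps25 and Mrps30, with log2 fold changes of 0.09 (Mrpl10) to 0.20 (Mrpl42). Mrps18a, which despite its name is a protein of the large subunit, had 4.79, 4.92 and 5.61 log2 CPM in all euploid and 5.02, 5.07 and 5.23 in Ts65Dn females, and the highest euploid library was B125. Its log2 fold change was 0.07 ± 0.10 with all libraries (adjusted p = 0.81) and 0.18 ± 0.04 without B125 and B176 (adjusted p = 0.014). In Ts65Dn;Brwd1+/- vs euploid without them, Mrps18a (0.19 ± 0.04, adjusted p = 0.036) and Mrpl41 (0.19 ± 0.06, adjusted p = 0.072) were called, beside 4.44% of all genes. Without B125 alone, 7 members were called there, beside 8% of all genes. Without both libraries, none was called between Ts65Dn;Brwd1+/- and Ts65Dn, as 0% of all genes, and the members' median was -0.01.

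Of the 2-copy members on chromosomes 16 and 17, none was called with all libraries by edgeR or DESeq2 without RUVr factors. With 3 such factors in edgeR, Mrpl14 was called in male Ts65Dn;Brwd1+/- vs euploid, Mrps18a in both female comparisons with euploid and Mrpl40 in female Ts65Dn;Brwd1+/- vs euploid. Mrpl40 lies on chromosome 16 outside the triplicated segment, and Mrpl18, Mrps34, Mrpl28, Mrps18b, Mrpl14, Mrps18a, Mrpl2 and Mrps10 lie on chromosome 17 beyond 8986648, where the triplicated part was taken to end. The smallest adjusted p of the 9 was 0.30 (Mrpl14, male Ts65Dn;Brwd1+/- vs euploid, 0.28 ± 0.10, edgeR). Mrpl40 differed by 0.10 ± 0.07 in E17.5, -0.08 ± 0.06 in male and 0.06 ± 0.10 in female Ts65Dn vs euploid. Mrpl14 differed by -0.15 ± 0.12, 0.23 ± 0.10 and -0.23 ± 0.18, and neither adult difference was called (adjusted p = 0.51 and 0.59). With 645 exonic bases it is among the transcripts under 1200 bases, which were raised in female euploid B125. Its female difference without B125 is not given here, so its directions in the sexes are not compared.

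Choroid plexus, the tissue in the ventricles beside the hippocampus that makes transthyretin, had markers that varied widely over the adult libraries. The mean of its 6 markers (Ttr, Folr1, Kcnj13, Aqp1, Otx2, Kl) ran from 0.994 to 6.998 log2 CPM, and their summed level had a median of 1027 CPM in euploid, 122.4 CPM in Ts65Dn and 787.1 CPM in Ts65Dn;Brwd1+/- males, and in the females 2013, 561.5 and 2068 CPM in the same order. In the embryos it was 862.5 CPM in euploid and 1220 CPM in Ts65Dn libraries. In a fit with this mean as a term beside genotype, Mrps6 rose with it in females by 0.11 ± 0.03 log2 per log2 unit (adjusted p = 0.012), where 15% of all genes had a slope called. This fit kept B125 and B176, the libraries with raised short transcripts, whose marker means were 6.42 and 6.55 log2 CPM. Their Mrps6 levels, 4.67 and 5.37, were the highest of their groups. The female slopes were not tested without these libraries. In males the slope of Mrps6 was 0.06 ± 0.03 and was not called (adjusted p = 0.44, 6.82% of genes called). Slc5a3 had slopes of 0.05 ± 0.02 in females (adjusted p = 0.062) and 0.06 ± 0.03 in males (adjusted p = 0.37), and Mrpl39 had 0.01 ± 0.02 and -0.0084 ± 0.03 (adjusted p = 0.70 and 0.91). Of 75 2-copy members, Mrpl58, a peptidyl-tRNA hydrolase of the large subunit, and Mrpl42 had a called slope in females (both 0.05, adjusted p = 0.051 and 0.079), none did in males, and none did in the embryos, where 0.171% of genes were called. With the choroid plexus level in the fit, Mrps6 was called in female Ts65Dn;Brwd1+/- vs euploid (0.68, adjusted p = 0.022), and Mrpl39 was not in male Ts65Dn vs euploid (0.45, adjusted p = 0.11). In bulk tissue, more cells of a type and more RNA per cell cannot be told apart.

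**Figure D4:**
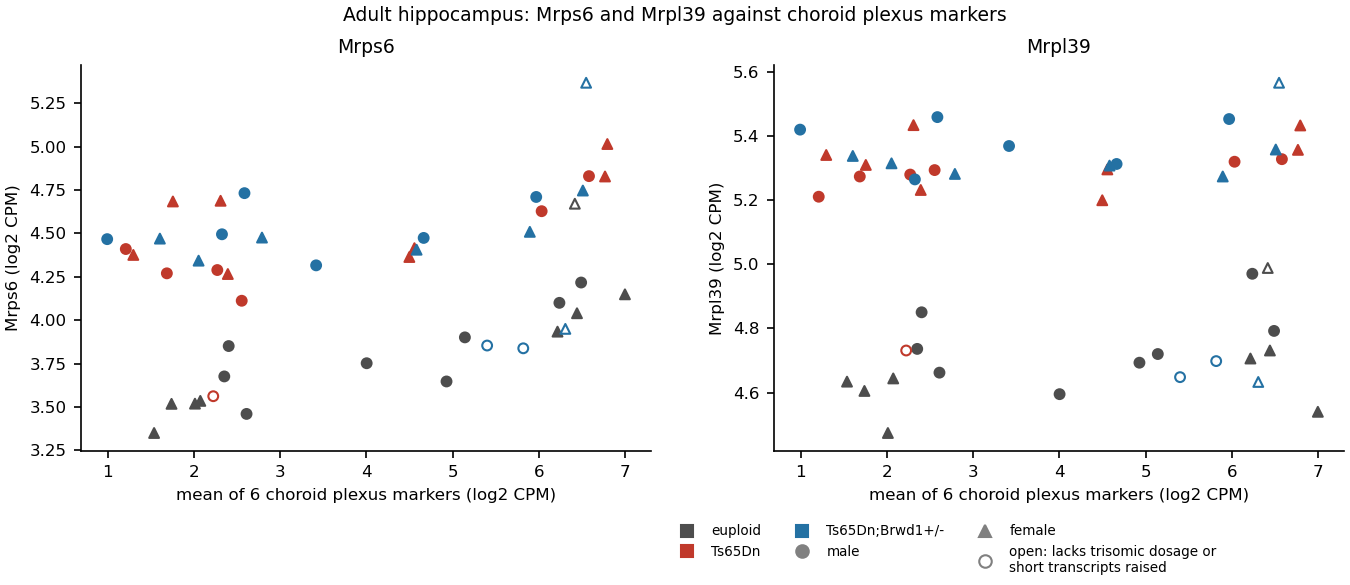
Level of Mrps6 (left) and Mrpl39 (right) in the 47 adult libraries against the mean level of 6 choroid plexus markers (both axes log2 CPM), by genotype (colour) and sex (shape), with open symbols for libraries lacking trisomic dosage or with raised short transcripts. With all libraries kept, Mrps6 has a called slope of 0.11 in females, and Mrpl39 falls into a euploid and a trisomic band with a slope near 0.

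The members also varied among libraries of the same group, to very different degrees. The median within-group SD of the 2-copy members was 0.14 log2 CPM in the embryos, 0.10 in males and 0.17 in females, against 0.21, 0.17 and 0.22 for all tested genes. The most variable members were Mrpl35 (0.39), Mrpl48 (0.34) and Mrpl27 (0.29) in the embryos, Mrpl48 (0.47), Mrpl27 (0.34) and Mrpl35 (0.34) in males, and Mrpl48 (0.54), Mrps6 (0.38) and Mrpl14 (0.37) in females. Mrps6 ranked 4 among the 77 members in males and 75 in the embryos, where its SD was 0.09. Without B145, T35 and B138 its SD fell from 0.40 to 0.26 in male Ts65Dn and from 0.35 to 0.16 in male Ts65Dn;Brwd1+/- libraries. Mrpl48 and Mrpl35 were singled out here after their values were seen.

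The libraries were sorted by level and cut at the 2 largest gaps, a rule that gives 3 ranges for any gene. Whether the ranges are distinct was not tested. Mrpl48 lies on chromosome 7 (100545779 to 100608301). In males, 4 libraries lay at 3.07 to 3.31, 15 at 3.87 to 4.21 and 4 at 4.55 to 4.72 log2 CPM, with empty gaps of 0.56 and 0.34. In females, 6 lay at 3.05 to 3.31, 11 at 3.97 to 4.25 and 7 at 4.41 to 4.71, with gaps of 0.66 and 0.16. The lowest range held libraries of all 3 male genotypes (1 euploid, 1 Ts65Dn and 2 Ts65Dn;Brwd1+/-) and, in females, 2 euploid, 0 Ts65Dn and 4 Ts65Dn;Brwd1+/- libraries. In the embryos 1 Ts65Dn library lay at 3.56 and the other 14 at 4.31 or above. Mrpl48 was not called in any comparison, and shares 8.6% of its exonic bases with Rab6a on the opposite strand. Mrpl35, on chromosome 6 (71812997 to 71823784), had 3 such ranges in the embryos (3 libraries at 3.61 to 3.82, 7 at 4.07 to 4.25 and 5 at 4.60 to 4.81) and in males (5 at 3.60 to 3.73, 11 at 4.01 to 4.31 and 7 at 4.47 to 4.70). In males the lowest of these held 3 euploid, 0 Ts65Dn and 2 Ts65Dn;Brwd1+/- libraries, and the middle one held 6 of 7 Ts65Dn libraries. The same cut of Mrpl35 in females left 1 library at 3.53, 2 at 3.66 to 3.74 and 21 at 4.04 to 4.67.

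**Figure D5:**
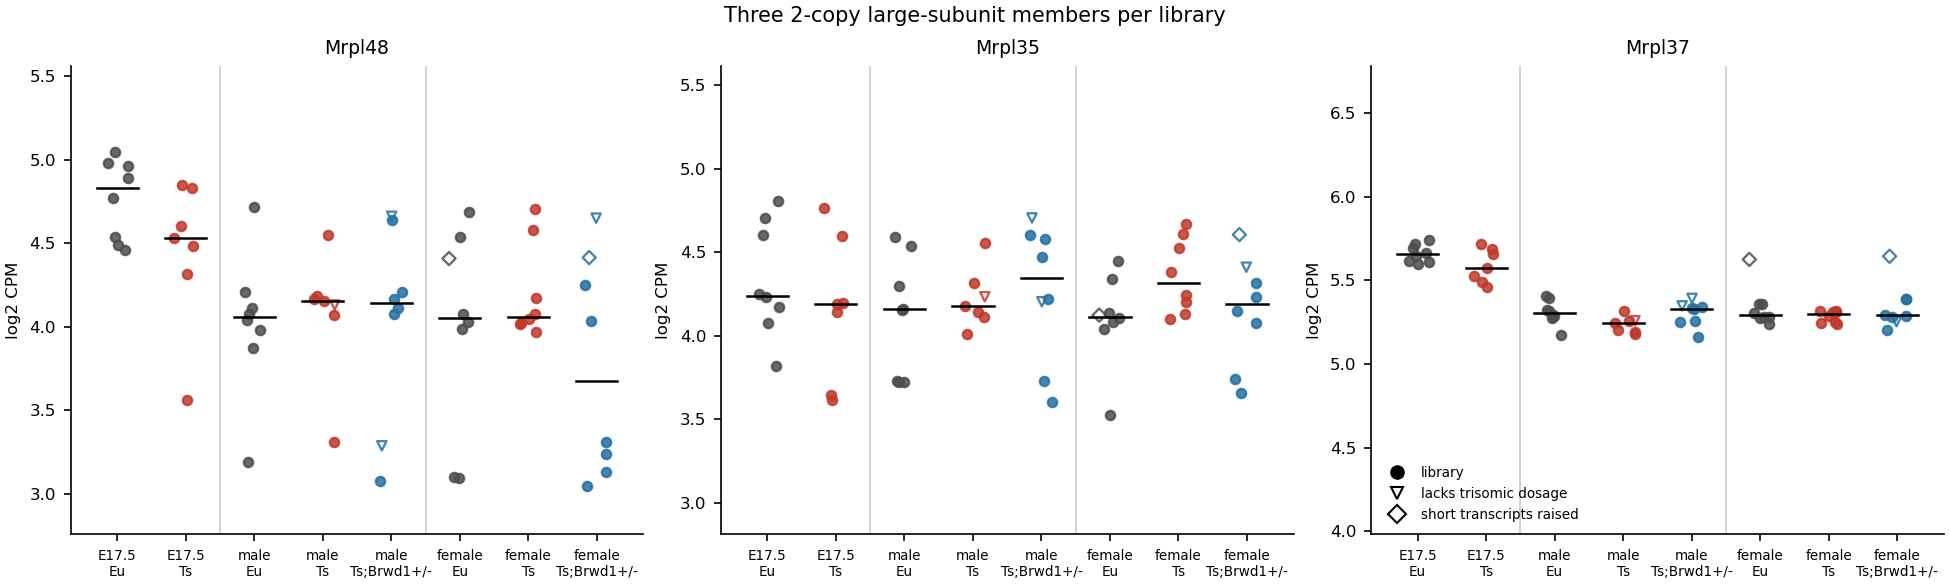
Level (log2 CPM) of the large-subunit members Mrpl48, Mrpl35 and, for comparison, Mrpl37 in every library of the 8 groups, with vertical axes of equal span, bars at the group medians, Eu for euploid and Ts for Ts65Dn. Open triangles lack trisomic dosage and open diamonds have raised short transcripts. Adult libraries of Mrpl48 are widely spread, with gaps of up to 0.66 between neighbouring levels, while those of Mrpl37 lie close together apart from the open diamonds.

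Other genes of mitochondrial translation gave few calls. Of 23 genes for assembly of the mitochondrial ribosome, Tfb1m, an rRNA dimethyltransferase gene that is itself triplicated on chromosome 17, was the only one called with edgeR. It rose in Ts65Dn vs euploid by 0.52 ± 0.10 in the embryos (adjusted p = 0.014), 0.52 ± 0.12 in males (0.045) and 0.42 ± 0.10 in females (0.037), and by 0.56 ± 0.12 in male Ts65Dn;Brwd1+/- vs euploid (0.041). In these comparisons edgeR called 1.35%, 0.795%, 3.17% and 0.576% of all genes. DESeq2 called 2 of the 23 in E17.5 and 2 in female Ts65Dn vs euploid, beside 3.58% and 6.12% of all genes. It called 1 each in male Ts65Dn, male Ts65Dn;Brwd1+/- and female Ts65Dn;Brwd1+/- vs euploid, beside 1.48%, 1.73% and 1.77%. Of 15 translation factors, Mrrf, the ribosome recycling factor, was called in female Ts65Dn vs euploid (0.23 ± 0.07, adjusted p = 0.078), beside 3.17% of all genes. DESeq2 also called 1 of the 15 there, beside 6.12%. None of the 5 ribosomal proteins of this particle with other names was called in any comparison with edgeR or DESeq2, and 1 had an unadjusted p under 0.05 in 1 of them. In E17.5 Ts65Dn vs euploid the median log2 fold changes were -0.12 for these 5, -0.05 for the assembly genes and -0.02 for the factors, beside -0.01 for all genes.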

How the data were processed

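RNA-seq libraries of polyA RNA (TruSeq RNA V2, a kit that does not mark strand) came from 15 forebrains at E17.5 and 47 adult hippocampi, the adults with an animal number in the title. The authors mapped reads to mm10 with HISAT2 (2.1.0 per the submitters' processing notes) and counted them with featureCounts 2.0.1. The deposited values are raw counts of 27179 Entrez genes in each table. Reads of 2 flow cells were joined per library. No column was left unmapped, and no 2 libraries of a group agreed within sampling noise. All groups came from the labels.

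Symbols, types and positions came from RefSeq (GRCm38.p6) for 25275 genes and from GENCODE M21 for 18 more, and 1886 had none. Exonic lengths (all 78 members) are unions of GENCODE M21 transcripts paired with RefSeq. Promoters are from RefSeq. The triplicated segments were bounded by general knowledge, from Mrpl39 on chromosome 16 and to 8986648 on chromosome 17. Members and gene lists were chosen with earlier results of these data known. Results of 2 of the gene lists are not reported here.

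The test was edgeR's robust quasi-likelihood test (4.0.16, R 4.3.3), with TMM scaling, filterByExpr at a minimum count of 10 and Benjamini-Hochberg adjustment over all tested genes (called under 0.1). Each sex had 1 fit over its 3 genotypes. Log2 CPM has a prior count of 0.5. Each triplicated member minus the median of the 2-copy members of its subunit was tested by exact permutation over libraries, 2-sided, adjusted over 14 tests. The 2-copy members named are those called in a comparison or, where none was, the 2 with the smallest p in each direction, the 4 highest and 4 lowest by RPKM in each tissue, and those on chromosomes 16 and 17. Alternatives were DESeq2 1.42.0, 3 RUVr factors (a method the study used, with no number of factors given), upper-quartile scaling, other filters, an FDR of 0.05, and fits without the libraries that lack trisomic dosage or go against their sex. The choroid plexus term, the omission of each library and of the length-shifted libraries, and the sex interaction without the libraries lacking dosage were added after seeing the data. Permutation and model p-values measure the spread between libraries.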

Additional observations from a re-analysis of the deposited data

Results flagged for a closer look

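In 40 sets of values (Mrps6, Mrpl39, the 2-copy median and the 2 levels relative to the subunit, in 8 groups), 8 had a library far from the others by Dixon's criterion, which chance alone meets in about 1 of 20 sets. Mrpl39 was lowest in the 2 groups that each held 1 library without trisomic dosage, at 4.73 log2 CPM in male Ts65Dn B145 (next 5.21) and at 4.63 in female Ts65Dn;Brwd1+/- B136 (next 5.27), and so was Mrpl39 relative to its subunit (0.38 in B145 and 0.22 in B136). The median 2-copy member was highest in the libraries with raised short transcripts, at 4.79 in female euploid B125 (next 4.33) and at 4.79 in female Ts65Dn;Brwd1+/- B176 (next 4.36). In the embryos, Mrps6 was lowest in Ts65Dn TS4, at 5.61 (next 5.76), still above every euploid embryo, and Mrps6 relative to its subunit was lowest in euploid EU4, at 0.19 (next 0.48). EU4 also had the highest 2-copy median of its group, at 4.98.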

How the results depend on the processing

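The differences of Mrps6 and Mrpl39 from euploid kept their direction under every alternative run. In the embryos both were called under all 11 alternatives and all 15 omissions of a library, and the E17.5 replicate block (pairs 1 to 7 by the title number) gave 0.76 for Mrps6, 0.63 for Mrpl39 and 0 called 2-copy members. The title numbers did not pair the embryos, with correlations of deviations of -0.13 to 0.23 and 1 of 7 Ts65Dn libraries closest to its own number.

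Mrps6 vs euploid became called in males with DESeq2 (Ts65Dn 0.50, Ts65Dn;Brwd1+/- 0.55), with 3 RUVr factors in edgeR (0.48, 0.54) or DESeq2 (0.48, 0.54), without the libraries lacking dosage (0.60, 0.70) and without both kinds of doubtful library (0.51, 0.70). In female Ts65Dn;Brwd1+/- vs euploid it did so with DESeq2 (0.69), RUVr in edgeR (0.70) or DESeq2 (0.70), the choroid plexus term (0.68), and without the libraries lacking dosage (0.75), shifted by length (0.68) or standing apart in any way (0.71). In female Ts65Dn vs euploid its call was lost at an FDR of 0.05 (0.70, adjusted p = 0.053) and without the library against its labelled sex (0.66). Mrpl39 lost its male calls at an FDR of 0.05 (0.46 and 0.48) and, in Ts65Dn, with the choroid plexus term (0.45). With single libraries left out, the male range was 0.40 to 0.60 and 0.50 to 0.62 for Mrps6 and 0.44 to 0.53 and 0.44 to 0.54 for Mrpl39 (Ts65Dn, then Ts65Dn;Brwd1+/-), and the female range of Mrps6 was 0.63 to 0.85 and 0.53 to 0.83. The libraries whose omission ended the Mrpl39 call were B110, B122, B139, B79, B80, B84, B25, B40, B45, B52 and B74 in Ts65Dn and B137, B26, B51, B69, B94, B122, B79, B80 and B84 in Ts65Dn;Brwd1+/-. Those that ended the Mrpl41 call were the same 9 of the latter with B100 and B110.

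Between Ts65Dn;Brwd1+/- and Ts65Dn, values near 0 changed sign. Without libraries lacking dosage and without both kinds, female Mrps6 was 0.049 and 0.050 and female Mrpl39 0.017 and 0.017. Relative to its subunit, female Mrpl39 was 0.039 without both kinds and 0.063 without all that stand apart, and male Mrpl39 was 0.045 without both kinds. Male Mrps6 relative to its subunit kept its sign and rose from 0.029 to 0.17 without both kinds. There it passed an adjusted p of 0.1 (exact permutation test), with B88, the male Ts65Dn library of the highest value, among those left out. Ranges with single libraries left out were -0.18 to 0.053 (female Mrps6), -0.10 to 0.017 (female Mrpl39), -0.050 to 0.15 (male Mrps6) and -0.051 to 0.084 (male Mrpl39). Mrps5 in female Ts65Dn;Brwd1+/- vs euploid became 0.0039 without the libraries that stand apart.

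The number of 2-copy members called was higher with the RUVr factors, under which many more genes were called in all. In the embryos edgeR and DESeq2 with 3 factors called 5 and 6 (22.1% and 24.8% of all genes). In males they called 1 and 2 (4.63% and 7.10%) in Ts65Dn vs euploid and 3 and 6 (4.97% and 7.85%) in Ts65Dn;Brwd1+/- vs euploid. In females they called 7 and 9 (23.5% and 25.5%), 12 and 16 (18.5% and 20.9%) and, between the trisomic genotypes, 2 and 2 (2.48% and 4.90%). Without length-shifted libraries the female counts vs euploid were 10 and 2, and without all that stand apart 6 and 2 (11.2% and 3.30% of all genes). At an FDR of 0.05 the male call of Mrpl41 was lost (0 called). Leaving out single libraries gave 0 to 1 in male and 0 to 7 in female Ts65Dn;Brwd1+/- vs euploid.

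The causes of these changes were not tested. Overlaps and RPKM lengths rest on annotations that are not the authors' own, and Mrpl36 was too shallow to test.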
